A study of Prunus avium with 27 samples.

Results

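In flower buds of sweet cherry, 114 genes had a mean RNA level that was raised between October and December and then stayed nearly level until late January. They were chosen from the RNA values themselves. For each gene the mean TPM (a share of the RNA in a library, scaled and corrected for transcript length) was taken over the 3 libraries of each date, and changes were taken as differences of log2(mean TPM + 1). A member had a rise of at least 1.5 from October to December, a later change between -0.5 and 0.5, and a mean of at least 5 TPM on at least 1 date. The 114 members were 0.733% of the 15551 genes with PRUPE identifiers that reached 5 TPM, among 28087 such genes in the tables. Because the RNA values chose the members, all RNA levels are given as a description without a test, and tests were made only on H3K4me3, a histone mark measured in separate libraries.

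The buds came from the cultivar Burlat, grown in an orchard, and were collected on 3 dates. Date 1 was 21 October 2014, date 2 was 5 December 2014, 45 days later, and date 3 was 27 January 2015, another 53 days later. Buds of the earlier dates are labelled dormant and January buds non-dormant, so the non-dormant state and the last date cannot be told apart. RNA was measured in 3 libraries per date and H3K4me3 by chromatin immunoprecipitation in 2 libraries per date (replicates 2 and 3), all from buds of the same branches. Whether replicates are separate trees is not labelled. The p-values therefore rest on the spread between these samples alone, and that spread may be technical. In whole buds, a change in the proportion of a cell type and a change of RNA per cell cannot be told apart. The identifiers carry no gene names and 0 of 29449 matched the gene table of sweet cherry, so neither the tissue's marker genes nor the functions of the members could be looked up. Members are therefore named by scaffold and by the lower coordinate of their locus as the tables give it, and the genome build is not given in the sources used.

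Buds of temperate fruit trees stop growing in autumn and stay closed through winter. They resume growth only after a long exposure to cold, the chilling requirement, followed by warmth. Dormancy is usually divided into a phase held from within the bud and a later phase in which cold weather holds back a bud that could already grow. H3K4me3, the trimethylation of lysine 4 on histone H3, is found mainly just after the start of transcribed genes. In plants, as in animals, it usually accompanies transcription.

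A rise of this size was seen in 279 genes in all. After December 60 of them went up by more than 0.5 on the log2 scale, 105 went down by more than 0.5, and 114 stayed within these bounds. The October to December change of the members ran from 1.51 to 4.94 with a median of 1.801, and 72 members were below 2 while 16 were at 3 or above. Their December to January change had a median of -0.08, with 67 members below 0, 47 above 0 and 22 within 0.1 of 0. Set against October, January levels were higher by 1.07 to 5.08 on the log2 scale, with a median of 1.94.

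The values of genes beside the limits show how gradual the boundaries were. Just inside the limit on the rise stood the genes on scaffold 5 at 17679650, scaffold 5 at 1049707 and scaffold 1 at 22951261, with rises of 1.51, 1.52 and 1.52. Just outside it stood scaffold 6 at 27360361, scaffold 5 at 8307917 and scaffold 7 at 16840330, with rises of 1.496, 1.493 and 1.493. At the lower limit of the later change, scaffold 6 at 27451339, scaffold 5 at 5290621 and scaffold 1 at 46285076 were members with -0.496, -0.496 and -0.481. Scaffold 1 at 35524307, scaffold 6 at 9021328 and scaffold 1 at 15897931 were left out with -0.5005, -0.510 and -0.512. At the upper limit, scaffold 5 at 1049707, scaffold 2 at 4952058 and scaffold 7 at 17905052 were members with 0.496, 0.493 and 0.489. Scaffold 8 at 4543631, scaffold 2 at 9862109 and scaffold 3 at 1506964 were left out with 0.5035, 0.511 and 0.552. Near the limit of 5 TPM, scaffold 1 at 5472514 was a member with a December mean of 5.11 TPM. The gene on scaffold 1 at 21241203 was left out with a highest mean of 4.32 TPM.

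**Figure D1:**
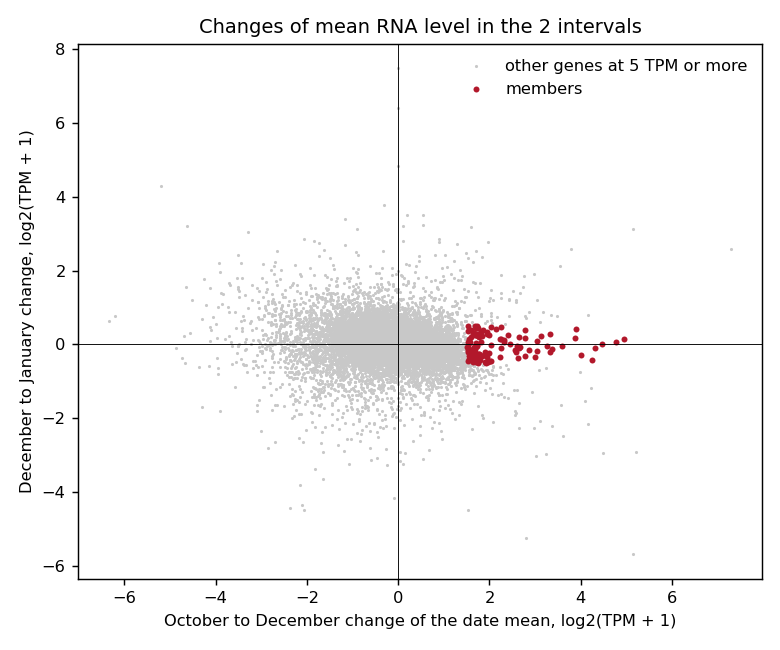
Each point is a gene with a mean of at least 5 TPM on some date, placed by its change from October to December (horizontal) and from December to January (vertical), both in log2(TPM + 1). The 114 members (dark points) lie to the right of 1.5 and within 0.5 of the horizontal zero line, at the edge of the cloud of the other genes (grey).

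Summed over the members, the RNA level was 2564, 2669 and 2610 TPM in the 3 October libraries. The sum was 12448, 13591 and 12239 TPM in December and 12908, 11947 and 12720 TPM in January. The members thus made up 0.256% to 0.267% of all transcripts in October and 1.20% to 1.36% afterwards, and the ranges of December and January overlapped. The median member had a mean of 12.6 TPM in October, 51.8 TPM in December and 44.5 TPM in January. In December 62 members had a mean of at least 50 TPM, 33 of at least 100 TPM and 5 of at least 500 TPM. In October 10 members were below 1 TPM.

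In 113 members every December library was above every October library, an order found in 35.8% of genes at 5 TPM or more, and in 112 members every January library was (38.1%). Since the rule used the same libraries, nothing is read from these counts. The exceptions were scaffold 2 at 16083496 in both comparisons and scaffold 3 at 16486708 in the January comparison. The December and January ranges overlapped in 62 members, against 50.8% of genes at 5 TPM or more. All January libraries were below all December libraries in 36 members and above them in 16, so a flat mean did not always go with overlapping libraries. The share of either order over genes at 5 TPM or more was not counted, and the rule used these libraries. These counts are therefore a description only.

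**Figure D2:**
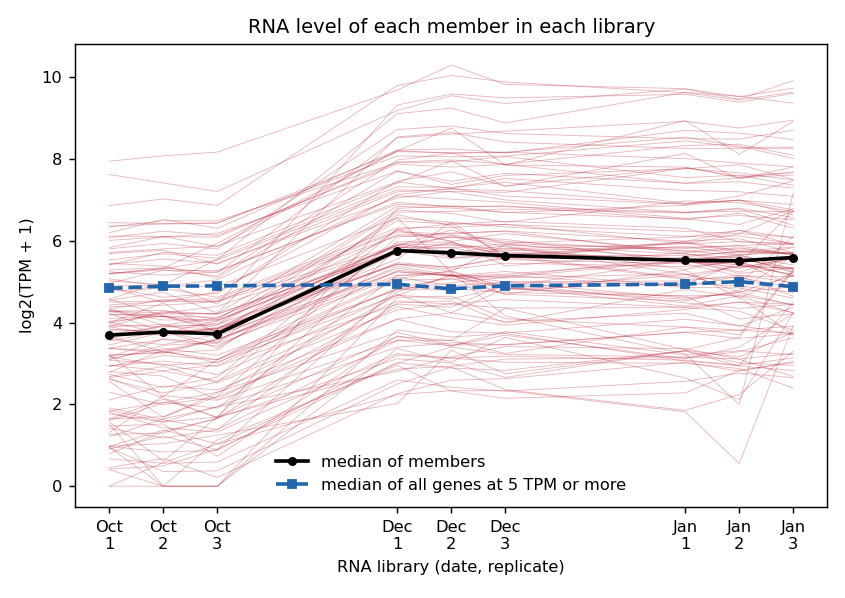
Each thin line is a member, with its level in log2(TPM + 1) in each of the 9 RNA libraries (date and replicate on the horizontal axis). The median of the members (black circles) steps up between October and December and then stays level, while the median of all genes at 5 TPM or more (blue squares) stays near 5 throughout. Single lines that climb steeply at January replicate 3 are members whose January libraries disagree.

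The 6 members with the highest December means included some that were already abundant in October. On scaffold 1, the gene at 46353151 was at 245, 268 and 286 TPM in October, 820, 1253 and 902 TPM in December and 840, 733 and 846 TPM in January. Its December mean of 992 ± 230 TPM (SD, n = 3) was 3.72 times the October mean, with the widest December scatter among these 6. RNA of the gene on scaffold 1 at 7990165 stood at 115, 129 and 115 TPM in October, 887, 1049 and 942 TPM in December and 784, 694 and 792 TPM in January. All its January libraries lay above October and below December, with means of 120 ± 7.99, 959 ± 82.4 and 757 ± 54.1 TPM (SD, n = 3 each). Levels of the gene on scaffold 4 at 6779161, a locus of only 237 bp, were 195, 169 and 146 TPM in October, 580, 745 and 653 TPM in December and 833, 702 and 964 TPM in January. Its December and January libraries overlapped, and its December mean was 3.87 times the October mean.

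The other 3 of the most abundant members started lower. The gene on scaffold 8 at 16151192 was at 31.5, 29.4 and 45.5 TPM in October, 549, 604 and 469 TPM in December and 788, 739 and 657 TPM in January. Every January library of this gene was above every December library, and its means stood at 15.3 and 20.5 times the October mean. On scaffold 1, the gene at 3576821 was at 54.7, 60.1 and 54.6 TPM in October, 420, 446 and 392 TPM in December and 359, 357 and 416 TPM in January. Its December mean was 7.43 times the October mean, and December and January overlapped. The remaining gene of the 6, PRUPE_ppa018214mg, was also among the largest rises.

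PRUPE_ppa012081mg, on scaffold 3 at 673004 to 673906, had the largest rise of all members. It was at 2.12, 3.37 and 2.19 TPM in October, 110, 114 and 102 TPM in December and 116, 126 and 117 TPM in January. Its mean went from 2.56 ± 0.704 to 109 ± 6.05 and 120 ± 5.85 TPM (SD, n = 3 each), a December mean 42.4 times that of October. PRUPE_ppa018214mg, on scaffold 4 at 2374848 to 2375731, was at 22.8, 30.7 and 20.8 TPM in October, 636, 767 and 719 TPM in December and 763, 668 and 775 TPM in January. Its December mean was 28.5 times the October mean, and its December and January libraries overlapped. The gene on scaffold 3 at 8173708 was listed at 0 in all 3 October libraries, so it has no fold. It was at 23.5, 24.0 and 16.1 TPM in December and at 13.8, 12.0 and 38.3 TPM in January, where 1 library was far above the others. The others were below every December library, so its level January mean rested on that library.

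The next largest rises were those of 2 neighbours on scaffold 4. The gene at 9603104 was at 2.13, 2.25 and 3.57 TPM in October, 67.3, 71.8 and 74.2 TPM in December and 50.6, 42.6 and 104.6 TPM in January. The gene at 9600251 was at 2.41, 1.96 and 2.23 TPM in October, 55.0, 68.6 and 56.7 TPM in December and 35.3, 29.8 and 68.1 TPM in January. Both were raised about equally in December, 26.8 and 27.3 times by their means, and both had their highest January value in replicate 3. Their other January values were below every December value, so their place within the limits rested on that library. RNA of the gene on scaffold 8 at 10925242 stood at 22.3, 25.8 and 17.8 TPM in October, 370, 399 and 339 TPM in December and 304, 305 and 304 TPM in January. All January libraries of this gene were below all December libraries.

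Among the 6 members with the highest October means, 3 have been described, and the other 3 made smaller steps. Levels of the gene on scaffold 5 at 13813324 were 79.7, 88.6 and 88.7 TPM in October, 239, 242 and 265 TPM in December and 185, 193 and 163 TPM in January. The gene on scaffold 4 at 9650244 was at 85.9, 84.5 and 85.7 TPM, then 268, 264 and 267 TPM, then 346, 310 and 312 TPM. On scaffold 3, the gene at 20758276 was at 81.0, 83.8 and 85.0 TPM, then 288, 283 and 286 TPM, then 256, 237 and 223 TPM. None of the 3 had overlapping December and January libraries, and the gene at 9650244 was the one whose January libraries were the higher.

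The libraries of a date agreed closely for most members and badly for a few. The range of log2(TPM + 1) over the 3 libraries had a median of 0.31 in October, 0.24 in December and 0.27 in January. In January 12 members (10.5%) had a range above 1, against 3.54% of genes at 5 TPM or more, and in December 2 members did. Of these 12, 11 were highest in January replicate 3. Among all 550 genes at 5 TPM or more with such a range, 354 (64.4%) were highest in that library. Leaving out January replicate 3 kept 101 of the 114 members but only 3 of these 11, so for most of the 11 the flat course rested on 1 library.

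The 4 widest spreads show this. RNA of the gene on scaffold 2 at 16083496 stood at 14.9, 21.3 and 12.4 TPM in October, 93.7, 36.3 and 16.9 TPM in December and 8.41, 2.99 and 142 TPM in January. The ranges of all 3 dates overlapped, and only the means followed the rule. Levels of the gene on scaffold 3 at 16486708 were 3.72, 4.04 and 4.05 TPM in December and at 2.52, 0.469 and 14.2 TPM in January. The gene on scaffold 4 at 18564270, a locus of 222 bp, was at 5.26, 3.34 and 17.8 TPM in January, and the gene on scaffold 3 at 10828956 was at 9.11, 11.4 and 37.5 TPM. In all 4, January replicate 3 was the highest of its date.

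The members were spread over 9 scaffolds, with 28 on scaffold 1, 16 on scaffold 2, 15 on scaffold 3, 14 each on scaffolds 4 and 6, and 12 on scaffold 5. Scaffolds 8, 7 and 10 held 8, 5 and 2. Their loci were 222 to 10946 bp long with a median of 2122 bp, against 2705 bp for genes at 5 TPM or more, and 16.7% against 11.6% were shorter than 1000 bp. In gene order 109 members stood alone, and 5 stood next to another member. On scaffold 4 the genes at 9597888, 9600251 and 9603104 followed each other. The positions of their H3K4me3 windows place the last 2 of these on opposite strands, pointing away from each other. The gene at 9597888 made a smaller step, from 15.2, 12.3 and 15.5 TPM in October to 52.7, 50.6 and 49.1 TPM in December and 33.0, 41.0 and 38.8 TPM in January.

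The other neighbours, on scaffold 8 at 10925242 and 10927201, ran towards each other and overlapped at their ends. The gene at 10927201 was at 35.4, 38.2 and 34.2 TPM in October, 250, 281 and 230 TPM in December and 222, 185 and 205 TPM in January. The RNA libraries were stranded, but the sources used here do not say whether strand was used in counting transcripts. The split of reads in the overlap between these genes is therefore uncertain. A further member, on scaffold 1 at 36196773, overlapped a gene that was no member.

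H3K4me3 was given as a normalised signal over regions that run from 500 bp upstream of a gene's start to 1500 bp downstream of that start. Of the 114 members, 94 had a region of their own, 19 lay in a longer region that also held the window of another gene, and 1 (scaffold 7 at 17905052) had none. A region entered the test if 2 or more of the 6 libraries had a signal of 10 or higher, which held for 82 of the 94 member regions and failed for 12. Because a region may pass this filter through its high dates, counts are given with all denominators. Of the 82, 6 were below 10 in both October libraries and 12 in at least 1 of them. These 12 passed the filter only with their later libraries, and the named calls among them are given no p. The change of log2(signal + 1) was tested with limma over all 15360 tested regions, and a region was called at a Benjamini-Hochberg adjusted p under 0.05. The median of all regions itself moved by 0.15 from October to December, -0.11 from December to January and 0.05 from October to January. Changes below are given relative to that median, while the test was of the change as deposited.

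The mark at the members had a median below that of genes at 5 TPM or more in October and above it in January. Over the 94 member regions the median signal was 110.9 in October, 167.6 in December and 200 in January, while over the regions of genes at 5 TPM or more it was 168.4, 187.3 and 173.9. By library, the median member region stood at 103.8 and 118.6 in October, 170.2 and 172.6 in December and 213.1 and 179.7 in January. Relative to the median tested region, the members' median on the log2 scale was -0.47 and -0.36 in October, 0.07 and 0.01 in December and 0.32 and 0.31 in January. The libraries of the 3 dates did not overlap on this scale, on which libraries of a date differed with a pooled SD of 0.052 (n = 2 per date). No p is given for these medians because the list was chosen with results known.

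From October to December, H3K4me3 rose at 45 member regions and fell at 0 by limma, out of 82 tested, 94 regions and 114 members. Over all tested regions 4.5% were called higher and 2.55% lower. At an unadjusted p under 0.05 limma gave 61 member regions higher and 0 lower, against 21.2% and 7.38% of all regions, and edgeR and DESeq2 also called 0 lower. With other scalings the background rose more, in proportion, than the count of members. With library medians aligned 54 member regions and 11.8% of all regions were called higher, with edgeR 50 and 9.73%, and with DESeq2 53 and 14.2%. The median relative change of the 82 was 0.48, and 76 of them were above the median of all regions. Of the 45 called, 14 had a relative change over 1, and the range was 0.34 to 5.89 with a median of 0.65. Both December libraries were above both October libraries at 75 of the 94 regions, against 50.9% of regions of genes at 5 TPM or more and 31.8% of all regions. A region at the lowest value of every library cannot count as higher in this way, which held for 2 of the 94. In each library 25.9% to 32.8% of all values were at the lowest value. Such regions may lower the shares over all regions, here and in the later contrasts.

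The number of calls depended on single libraries. October replicate 2 had 15 member regions at the minimum value that the tables hold, against 8 in replicate 3, and without it 25 member regions were called, with a background of 0.749%. Without December replicate 3 there were 28 calls and a background of 1.23%, while the median relative change of the members was 0.48 and 0.51 in these fits. Limiting the test to regions of at least 10 in both October libraries, a limit chosen after seeing the data, gave 43 calls among 70 member regions and a background of 7.79%. With no filter on low signal 2 of 94 member regions were called, among 27 (0.105%) of all regions.

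**Figure D3:**
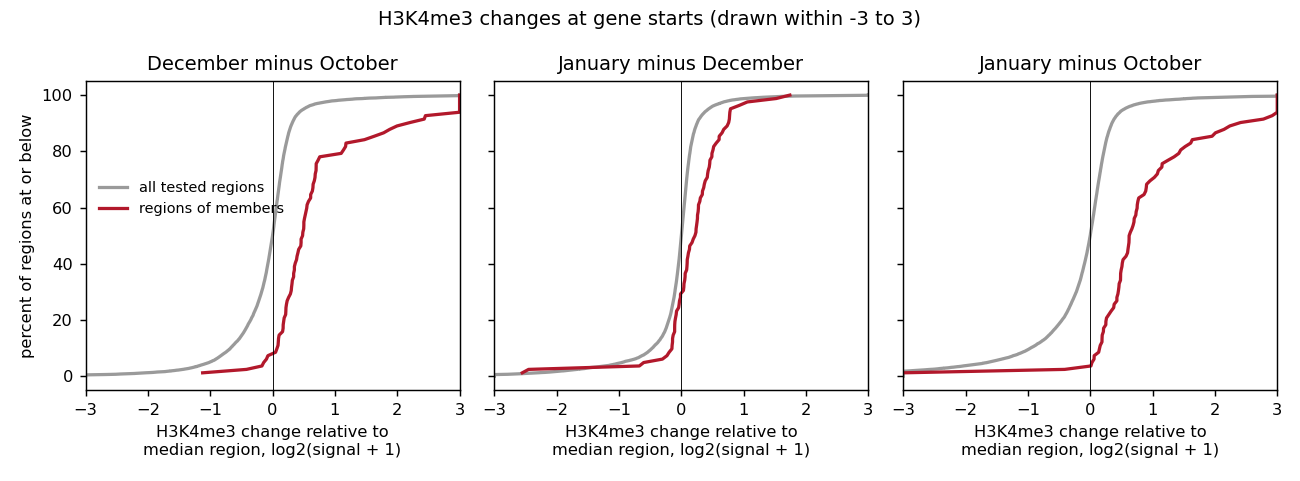
The curves give the percent of regions (vertical axis) at or below a change of H3K4me3 (horizontal axis, log2(signal + 1), relative to the median region) for the 82 tested member regions (dark) and all 15360 tested regions (grey), in 3 panels for December minus October, January minus December and January minus October. The member curve lies to the right of the grey curve along most of its length in the outer panels and is closest to it in the middle panel, where the members' median is 0.23.

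The 6 largest called gains by December were at genes with a low H3K4me3 signal in October. At scaffold 4, 9600251, the gene of the run described above, the signal was at the minimum in both October libraries (0.183 and 0.154), 70.4 and 81.2 in December and 72.3 and 58.5 in January. This region passed the signal filter only through its later dates, so its call is a description and no p is given. Its fitted change, 6.03 before the median shift is taken off, was 8.14 with a pseudocount of 0.1 and 3.07 with a pseudocount of 10. At scaffold 4, 7012807, the signal was 0.183 and 12.3 in October, 88.7 and 97.5 in December and 267 and 232 in January (relative change by December 4.42 ± 0.662, SE). This region, too, passed the filter only with its later dates, so it is given no p. The mark at 9600251 was near its January level in December, whereas that at 7012807 was higher again in January.

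At scaffold 6, 1766888, the signal was 0.183 and 7.25 in October, 54.7 and 49.8 in December and 93.7 and 110.2 in January. At scaffold 1, 35177537, it was 0.183 and 14.3, then 43.4 and 66.6, then 57.0 and 38.5. At scaffold 6, 22731464, it was 1.65 and 20.0, then 91.1 and 80.8, then 49.1 and 54.8. At these 3 genes the December libraries were all above the October libraries, with relative changes of 3.94, 3.54 and 3.39. Each was below 10 in at least 1 October library, and 1766888 in both. All 3 thus passed the filter only with their later dates, and no p is given. At scaffold 6, 2183845, the signal was 7.32 and 10.8 in October, 49.9 and 36.8 in December and 76.0 and 76.7 in January, a relative change of 2.00 ± 0.346 by December (SE). This region also passed the filter only with its later dates and is given no p. Without the filter on low signal the call was lost at 5 of these 6 regions and kept at scaffold 4, 9600251. It was also lost with DESeq2 at 7012807 (adjusted p = 0.063), 35177537 (0.21) and 22731464 (0.0504), and with edgeR at 35177537 (adjusted p = 0.10).

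The sizes of these gains rested on which October library was used. Before the median shift is taken off, the change by December was 4.57 at 7012807, 4.09 at 1766888, 3.68 at 35177537 and 3.54 at 22731464. Without October replicate 2 it was 2.82, 2.69, 1.84 and 2.04 in the same order. Without October replicate 3 it was 6.31, 5.49, 5.53 and 5.04.

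**Figure D4:**
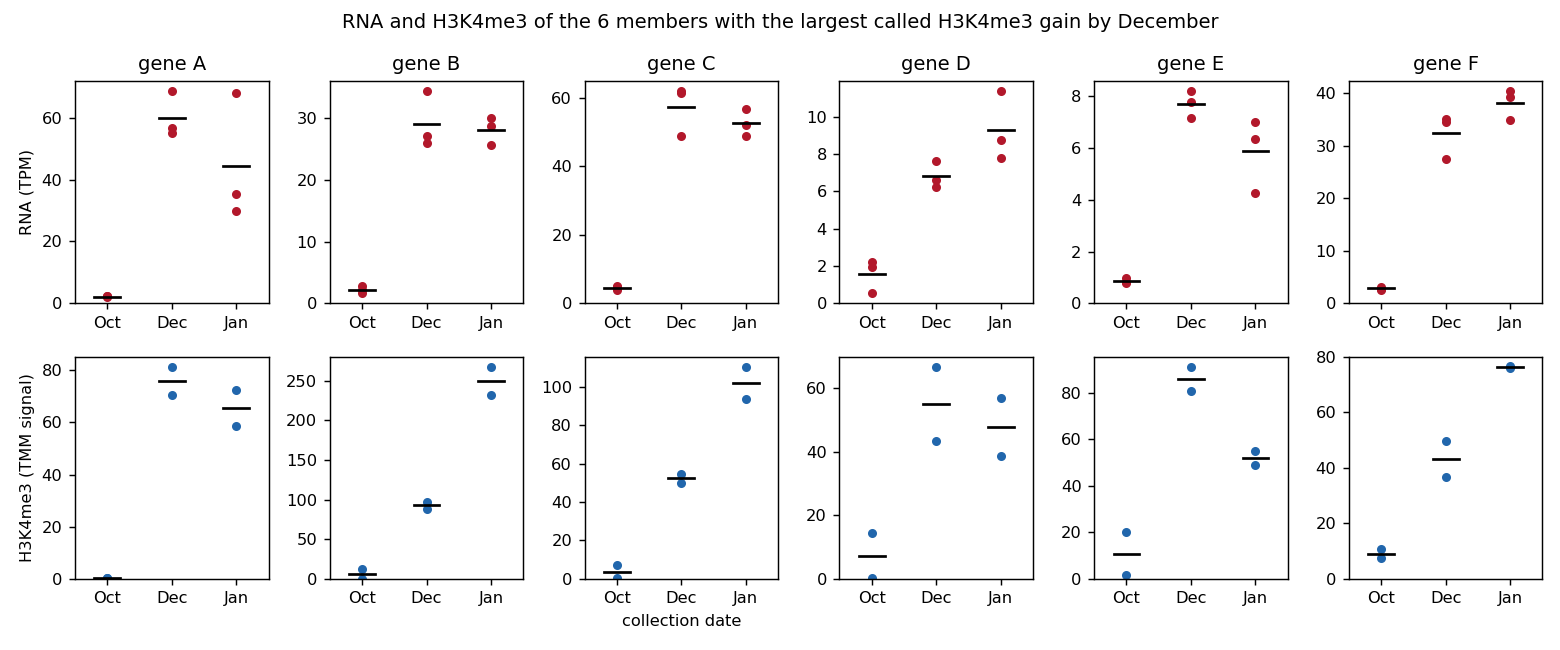
RNA in TPM (upper row, 3 libraries per date) and H3K4me3 signal (lower row, 2 libraries per date) are drawn for the 6 members with the largest called gain of the mark by December, with a point per library and a bar at the mean. Genes A to F are scaffold 4 at 9600251, scaffold 4 at 7012807, scaffold 6 at 1766888, scaffold 1 at 35177537, scaffold 6 at 22731464 and scaffold 6 at 2183845. In all 6 both assays are higher in December than in October, and in B, C and F the mark is higher again in January.

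The RNA of these 6 was mostly modest. On scaffold 4, the gene at 7012807 was at 2.77, 2.09 and 1.61 TPM in October, 26.0, 34.4 and 27.1 TPM in December and 30.1, 28.8 and 25.6 TPM in January. RNA of the gene on scaffold 6 at 1766888 stood at 5.14, 3.85 and 4.84 TPM, then 61.9, 61.2 and 48.9 TPM, then 48.7, 52.0 and 56.7 TPM. Levels of the gene on scaffold 6 at 2183845 were 2.58, 3.14 and 2.75 TPM, then 34.6, 35.1 and 27.5 TPM, then 34.9, 40.4 and 39.3 TPM. In each of the 3, December and January libraries overlapped and lay far above October. The genes on scaffold 1 at 35177537 and on scaffold 6 at 22731464 were lower, with December means of 6.84 ± 0.695 and 7.72 ± 0.531 TPM (SD, n = 3 each).

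Among the 6 members with the highest December means, those with a region of their own had a signal above 40 in both October libraries. At scaffold 1, 7990165, the signal went from 117 and 122 to 381 and 359 and then to 611 and 493, a relative change by December of 1.48 ± 0.134 (SE, limma adjusted p = 5.6e-06). At PRUPE_ppa018214mg it went from 132 and 142 to 248 and 231 and then to 361 and 315 (0.65 ± 0.135 by December, limma adjusted p = 0.0028). At scaffold 1, 46353151, it went from 169 and 146 to 272 and 262 and then to 243 and 226 (0.61 ± 0.137 by December, limma adjusted p = 0.0040). All 3 were called higher in December. Without the filter on low signal the call was lost at PRUPE_ppa018214mg (limma adjusted p = 0.061) and at 46353151 (0.065). Leaving out October replicate 2 also lost it at PRUPE_ppa018214mg (0.75 before the median shift), as did leaving out October replicate 3 at 46353151 (0.65). At scaffold 4, 6779161, the signal of 43.6 and 45.2 in October, 63.9 and 62.4 in December and 57.7 and 66.7 in January gave no call (0.35, limma adjusted p = 0.17). At scaffold 8, 16151192, it went from 62.8 and 50.1 to 99.7 and 101 and then to 163 and 157, and the region was called (0.68, limma adjusted p = 0.015). That call was lost without the filter on low signal, without October replicate 3 or without either December library. Not every abundant member had such a start, since the gene on scaffold 8 at 10925242, described among the neighbours, had 0.183 and 12.95 in October.

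Member regions with a low signal in October had a larger median change. Among the 26 tested member regions with a mean October signal under 50, 12 were called higher by December and the median relative change was 1.41. Among the 20 from 50 to 150, 13 were called with a median of 0.53, and among the 36 at 150 or above 20 were called with a median of 0.35. October values enter both the grouping and the change, and the same ranges were not counted over all tested regions. This order is therefore a description only and is not shown to be particular to the members.

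Between December and January, when the RNA of the members was level by choice, the mark rose at 3 member regions and fell at 0 of 82, against 0.436% of all regions called higher and 1.3% lower. At an unadjusted p under 0.05 limma gave 15 member regions higher and 3 lower, against 2.42% and 10.7% of all regions. The median relative change was 0.23, with 58 of 82 above the median of all regions. At 32 of 94 regions both January libraries were above both December libraries, against 7.18% of the regions of genes at 5 TPM or more and 6.62% of all regions. The 3 regions were scaffold 1 at 1492602, scaffold 1 at 7990165 and scaffold 2 at 22787964. Each of these calls was lost with a pseudocount of 0.1, without the filter on low signal and without either December library. The call at 22787964 was also lost without either October library. At scaffold 1, 1492602, the signal was 101 and 88.4 in October, 171 and 164 in December and 295 and 234 in January (relative change after December 0.76 ± 0.158, SE, limma adjusted p = 0.046).

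At scaffold 2, 22787964, the signal was 154 and 154 in October, 271 and 286 in December and 441 and 374 in January (relative change after December 0.65 ± 0.131, SE, limma adjusted p = 0.046). For scaffold 1, 7990165, the later relative change was 0.68 ± 0.134 (SE, limma adjusted p = 0.041). The RNA of the gene on scaffold 1 at 1492602 was at 208, 165 and 192 TPM in December and 216, 231 and 180 TPM in January, with overlapping libraries. For scaffold 2, 22787964, it was at 34.6, 36.7 and 28.5 TPM and then 44.7, 41.5 and 35.2 TPM. The gene on scaffold 1 at 7990165 had lower RNA in every January library than in every December library.

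The count of 3 changed with the scaling. Where a library was left out, a date kept 1 library, so only the members' median relative change is given. It was 0.25 and 0.16 without December replicates 2 and 3, and 0.23 and 0.22 without October replicates 2 and 3. Without January replicates 2 and 3 it was 0.24 and 0.20. After the medians of the libraries were aligned, limma called 15 member regions higher and 0 lower, with a background of 2.93%. edgeR on recovered reads called 14 higher and 0 lower, with a background of 2.43%, and DESeq2 called 27 higher and 3 lower, with a background of 6.31%.

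Over the whole span from October to January, 52 member regions were called higher and 1 lower by limma, out of 82 tested and 94 in all, against 5.68% and 9.49% of all regions. The median relative change was 0.63, and both January libraries were above both October libraries at 76 of 94 regions, against 29.9% of the regions of genes at 5 TPM or more and 19.2% of all regions. Of the 82, 41 were called higher both by December and by January, 4 only by December, 11 only by January and 26 in neither. These comparisons share their October libraries, and a region called in 1 of them was not shown to differ between them. Without October replicate 2 the count was 38, with a background of 1.94%, and without a filter on low signal 28 of 94 were called, with a background of 0.823%. With library medians aligned, edgeR and DESeq2 the counts were 65, 61 and 64, with backgrounds of 18.8%, 16.8% and 20.1%. The 82 include the 12 regions that passed the filter only with their later libraries. Limited to regions of at least 10 in both October libraries, 47 of 70 member regions were called higher, with a background of 6.81%. That limit was chosen after seeing the data.

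The 4 largest called gains by January were at scaffold 4, 7012807 (relative change 5.93), scaffold 4, 9600251 (5.78), scaffold 6, 1766888 (4.99) and scaffold 6, 25694688 (4.17). At 7012807 an October library was below 10, and at the last 3 both were. All 4 entered the test only with their later dates, so no p is given for these calls. Without the filter on low signal limma no longer called 7012807 (adjusted p = 0.052), 1766888 (0.054) or 25694688 (0.068), and without January replicate 2 it no longer called 25694688 (0.058). At 25694688 the signal was 0.183 and 2.16 in October, 9.21 and 12.1 in December and 36.4 and 33.3 in January, with relative changes of 2.43 by December and 1.74 after it. Its RNA was at 5.66, 4.33 and 5.34 TPM in October, 77.0, 62.4 and 40.8 TPM in December and 51.2, 54.8 and 50.8 TPM in January. The region called lower was scaffold 3, 2476543, with a signal of 18.3 and 29.8 in October, 3.02 and 37.4 in December and 2.25 and 0.185 in January (relative change -3.68 ± 1.05, SE, limma adjusted p = 0.027). Its RNA went the other way, from 1.49, 3.64 and 3.28 TPM in October to 10.9, 9.78 and 12.7 TPM in December and 8.23, 8.93 and 8.27 TPM in January. The call was lost when any of the October or January libraries was left out.

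Genes with the same early rise and another later course give values to set beside those of the members. By December the mark was called higher at 21 of 41 tested regions of the 60 genes whose RNA rose on, and at 29 of 78 tested regions of the 105 genes whose RNA fell back, with median relative changes of 0.65 and 0.36. From December to January the medians were 0.67 for the former, 0.23 for the members and -0.07 for the latter, with 8, 3 and 1 regions called higher and 0, 0 and 3 called lower. By January 33 of 41 and 29 of 78 regions were called higher, with medians of 1.31 and 0.25. Over all tested regions, 4.5% were called higher by December, 0.436% from December to January and 5.68% by January. From December to January 1.3% of them were called lower. How many regions of the lists other than the members passed the signal filter only through later dates was not counted. The differences between these lists were not tested.

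**Figure D5:**
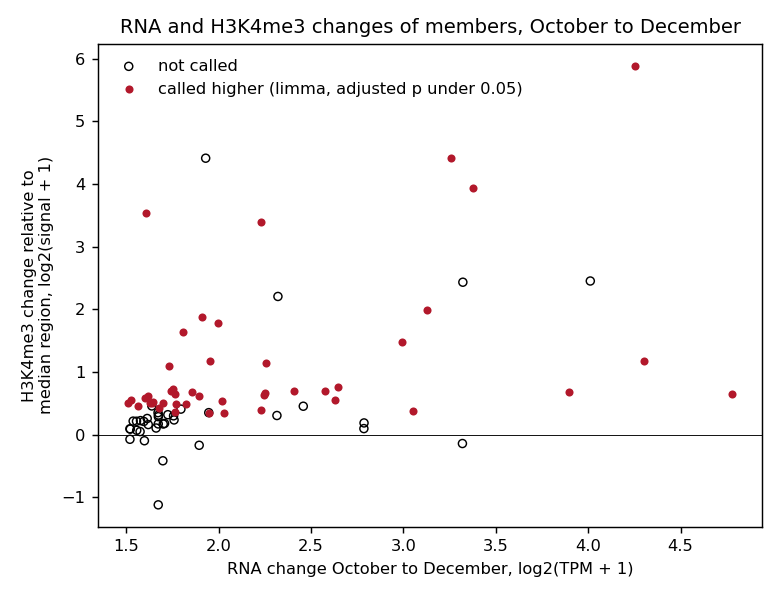
Each point is a tested member region, placed by the RNA change from October to December in log2(TPM + 1) and by the H3K4me3 change over the same dates in log2(signal + 1), relative to the median region. Filled points were called higher by limma. Most points lie above 0 on the vertical axis, relative changes of the mark above 3 occur at RNA changes from 1.605 to 4.255, and 6 points lie below 0.

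Across the 82 tested members the RNA rise and the change of the mark by December had a Pearson r of 0.46 and a Spearman rho of 0.52. This is a description over genes that share the same libraries. The 82 include the 12 regions that passed the signal filter only with their later libraries, where a gain is favoured. Neither these values nor the split that follows were recalculated without these 12. Of the 28 members with an RNA rise of at least 2, 20 were called higher for the mark with a median relative change of 0.69. Of the 54 with a smaller rise 25 were called with a median of 0.36. Over all tested regions 4.5% were called higher. As described above, the number of calls depended on the filter and on single libraries. Scaffold 1 at 2675182, chosen after its values were seen, was a member with a large RNA rise and little change of the mark by December. Its RNA was at 38.0, 39.5 and 36.2 TPM in October, 365, 388 and 408 TPM in December and 483, 431 and 492 TPM in January, and its signal was 41.9 and 34.9, then 41.1 and 35.9, then 62.8 and 60.0. The relative change by December was -0.14 ± 0.269 (SE, limma adjusted p = 0.99).

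In the run on scaffold 4 the neighbours behaved unequally for the mark. The gene at 9603104 had a signal of 35.0 and 50.4 in October, 96.5 and 118 in December and 90.8 and 88.3 in January, and was called higher by December (relative change 1.18 ± 0.226, SE, limma adjusted p = 0.0029). The gene at 9597888 had 212 and 204, then 277 and 292, then 241 and 208, with a relative change of 0.30 that missed the threshold (limma adjusted p = 0.051) and passed it under 8 of 15 alternatives. On scaffold 8 the gene at 10925242 had 0.183 and 12.95, then 23.9 and 23.5, then 36.0 and 40.0. It was not called by December (limma adjusted p = 0.062) and was called by January (relative change 3.21 ± 0.815, SE). That call was lost without the filter on low signal, with edgeR, with DESeq2 and without either January library. The region passed the filter only with its later dates, so no p is given for the call.

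Members outside the main test are described by their values. The 12 members whose own region did not pass the filter had December means of 4.47 to 65.2 TPM, with a median of 9.63 TPM. The highest of them, on scaffold 5 at 11681269, was at 20.5, 22.0 and 22.1 TPM in October, 68.4, 66.7 and 60.5 TPM in December and 67.2, 75.4 and 59.0 TPM in January, while its region stood at the minimum in all 6 H3K4me3 libraries. Scaffold 3 at 8173708, listed at 0 TPM in October, had a signal of at most 0.463 in any library. The sources used here do not say whether a control had been subtracted from the signal, so a minimum does not show that the mark is absent.

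Of the 19 members in longer regions, 16 were tested, 4 regions were called higher by December and 1 lower, against 4.5% and 2.55% of all tested regions. The region around PRUPE_ppa012081mg, on scaffold 3 from 670589 to 674505, had a signal of 302 and 297 in October, 441 and 470 in December and 572 and 503 in January (relative change by December 0.45, limma adjusted p = 0.0082). The region on scaffold 1 with the gene at 3576821 went from 108 and 120 to 427 and 389 and then to 534 and 486 (1.69, limma adjusted p = 1.4e-06). The region with the gene on scaffold 1 at 36196773 went from 276 and 272 to 606 and 638 and then to 654 and 593 (1.03, limma adjusted p = 3.3e-05). These 3 were higher in both December libraries than in both October libraries, and the call at PRUPE_ppa012081mg was lost when any of these 4 libraries was left out.

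The other called gain was at scaffold 2, 24941805 (0.29, limma adjusted p = 0.041). The region on scaffold 6 with the gene at 27340765 fell from 103 and 102 to 62.2 and 60.4 and stood at 71.1 and 63.2 in January (relative change by December -0.88, limma adjusted p = 0.040), although the December RNA mean of that gene was 4.06 times its October mean. The calls at 24941805 and 27340765 were each lost under 7 of 15 alternatives, among them leaving out any October or December library. In all 5 regions the signal of the member's own start cannot be separated from that of the neighbouring gene.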

How the data were processed

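RNA values were TPM as deposited by the authors, 3 libraries per date, for 29449 genes, of which 28087 have PRUPE identifiers. TopHat and Picard are named for them in the submitters' processing notes. RNA came from 50 to 70 mg of buds with an RNA integrity number of at least 8.5, in stranded libraries, and chromatin from 300 to 500 mg, per the labels. Reads were paired, 75 bp long, with all RNA libraries in a single lane and all H3K4me3 libraries in another, per the labels. Depth behind TPM is unknown, and no counting intervals are given.

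H3K4me3 values are a signal for 25635 regions as deposited by the authors, with the name TMM per the file headers. For these libraries Bowtie2, DiffBind, FastQC, Picard and Trimmomatic are listed in the submitters' processing notes. All values (100%, within 0.01) were whole multiples of a step per library, which gave 14216613 to 28126160 recovered reads. The lowest multiple, a single step, was shared by 25.9% to 32.8% of the values in a library. The next multiple was found at only 153 to 181 regions. The recovered reads given to edgeR and DESeq2 are thus not shown to be raw counts. How the pile of values at the minimum arose was not tested. H3 and input libraries, 6 each, were not analysed here. Regions were joined to genes by the 500 bp and 1500 bp window, which matched all 671 regions that carry an identifier. For plus-strand genes the match holds if the tables count gene starts from 0.

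Tests were two-sided with limma 3.58.1 (R 4.3.3) and an intensity trend on log2(signal + 1), with a single fit of 6 libraries and date as the only factor. Changes are on this scale and understate those of low regions. Count tests of the recovered reads used DESeq2 1.42.0 and the quasi-likelihood test of edgeR 4.0.16. edgeR called 1495 regions higher from October to December over all. The fit was tested on simulated data. RNA of members received no test, because RNA chose them.

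Members and lists were chosen with earlier results of these data known. Text names the 6 members with the highest December mean, the 6 with the largest rise, the 6 with the highest October mean, the 4 with the widest spread and the neighbours in gene order. It also names the 3 genes on each side of each limit on the changes, and the largest called H3K4me3 changes, 6 per direction for December against October and 4 per direction for the other contrasts. Alternatives were other settings of the rule, other scalings, pseudocounts and filters, the 2 count tools, a replicate block and leaving out each library.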

Additional observations from a re-analysis of the deposited data

How the results depend on the processing

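The number of members moved with the limits of the rule: a rise of at least 1 gave 562, a rise of at least 2 gave 42, and a later change within 0.3 gave 67. Leaving out each RNA library in turn gave 110 to 129 members. For December against October, 2 member regions were called higher without a filter on low signal, and 25 to 64 when each H3K4me3 library was left out in turn. At 63 and 64 calls, without a January library, 29.6% and 28.9% of all regions were called higher. For January against December, the count of 3 became 15 with library medians aligned, 14 with edgeR and 27 with DESeq2. It was 5 with at least 10 in both October libraries (0.695% of all regions), an alternative added after seeing the data. With a pseudocount of 0.1 it was 0 (0.273% of all regions). It was also 0 by limma without a filter, where 19 member regions and 1985 of all regions had an unadjusted p under 0.05. Leaving out each library gave 0 to 7. For January against October, the count of 52 became 28 without a filter and 38 to 64 when each library was left out, with 29.6% of all regions called higher at 64. The H3K4me3 counts in this paragraph are of regions called higher. For January against December, leaving out December replicate 2 or January replicate 2 also gave calls of a lower mark at members. Without January replicate 2 the members called lower outnumbered those called higher, although the members' median relative change was 0.24. Where a date keeps 1 library, that library is assumed to vary like the others, so no conclusion is drawn from these counts.

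With the replicate number as a block, 47, 4 and 52 member regions were called higher for the 3 contrasts in the order above. The shares over all tested regions were 4.88%, 0.671% and 5.18%. The deviations of replicate 2 correlated at 0.53, -0.07 and -0.10 between pairs of dates, so the numbers were not taken as a pairing. Over 29 tests of 24 single members whose changes of the mark are named, 340 alternative values kept direction and call, 65 lost the call and 13 gained it. Another 5 reversed, all for the uncalled change at scaffold 1, 2675182, by December, which was 0.007 before the median shift. It was -0.14 with library medians aligned and with edgeR, -0.15 with DESeq2, and between -0.12 and 0.14 when each library was left out in turn, below 0 without October replicate 3 and without December replicate 2. The cause of these changes was not tested.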
